A study of Mus musculus with 8 samples.

Results

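Collagen chain genes were taken from the array table as every gene whose symbol is Col, a type number, the letter a and a chain number, and whose array row carries no other symbol. They made up 44 of the 22180 genes with such a row, namely 11 fibrillar chains, 6 basement membrane (type IV) chains and 27 other chains. The samples were hepatic macrophages from male FVB/N mice aged 8 weeks with acetaminophen liver injury, 4 arrays from mice given recombinant transferrin (rTF, 25 µg) and 4 from mice given recombinant CPS1 (rCPS1, 50 µg). CPS1, carbamoyl phosphate synthetase 1, is an enzyme of the urea cycle, and transferrin carries iron in plasma. Both proteins were given through the tail vein 12 h ahead of an intraperitoneal dose of 350 mg/kg acetaminophen, which all mice of both groups received. The injected protein and its amount therefore differed together. All sample titles begin with Mouse1, so it cannot be told whether the 4 replicates of a group were separate mice, and the p-values rest on a spread between arrays that may be technical only.

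A collagen molecule is a trimer of chains wound into a triple helix. Fibrillar collagens such as types I and III pack into the fibres of scar tissue, type IV forms the sheet-like network of basement membranes, and the remaining types decorate fibrils, link cells to matrix or span the cell membrane. In liver, hepatic stellate cells and portal fibroblasts are the main producers of fibrillar collagen after injury, whereas macrophages are known more for degrading and taking up matrix. Collagen transcripts in a macrophage preparation are therefore set here beside the genes that mark stellate cells. The question asked of the chains was whether fibrillar, type IV or other collagen transcripts differed between mice given rCPS1 and mice given rTF. In RNA from a mixed preparation, fewer cells of a type and less RNA per cell cannot be told apart.

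The preparations carried signal of macrophages and of other liver cells. All 10 of 10 Kupffer cell markers and 11 of 11 measured sinusoidal endothelial markers lay above the median of all array rows (3.60 on the log2 scale). So did 10 of 10 hepatocyte genes and 14 of 20 measured stellate cell genes, beside 55.8% of all genes. That median is used here as a rough line between rows with and without clear signal. Array medians ran from 3.55 to 3.68 and pairs of arrays correlated at 0.967 to 0.983 across rows, which are not independent replicates. The number of arrays limits the precision. Levels of different genes come from different probes and are not compared with each other.

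No collagen chain passed the test between the groups. With limma, 0 of 44 chains had an adjusted p under 0.05, where the share called among all 22180 genes was also 0%. At an unadjusted p under 0.05 there was 1 chain of 44 (2.27%), Col7a1, beside 4.67% of all genes (1.88% higher and 2.79% lower with rCPS1), so the collagens did not exceed the background. The groups did not overlap for 1 chain, Col8a2, lower with rCPS1, beside 2.92% of all genes (1.97% with rCPS1 lower). Of the 44 chains 27 were lower and 17 higher with rCPS1, which is 61.4% lower beside 54.4% of all genes. The median log2 difference of the chains was -0.039 and that of all genes -0.018.

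The 3 kinds of chain were close to each other. Averaged over the 11 fibrillar chains, the log2 level of the 4 rTF arrays was 3.83 ± 0.16 (SD) and that of the 4 rCPS1 arrays 3.78 ± 0.032 (SD), which differ by -0.051. For the 6 type IV chains the rTF mean was 4.08 ± 0.10 and the rCPS1 mean 4.01 ± 0.17 (SD), which differ by -0.070. For the 27 other chains the values were 3.73 ± 0.10 and 3.71 ± 0.057 (SD), which differ by -0.023. Each of these differences was smaller than the standard deviation between the rTF arrays. Against the standard deviation between the rCPS1 arrays, the fibrillar difference was larger and those of the type IV and other chains were smaller. The mean over all genes differed by -0.015. Of the fibrillar chains 8 were lower and 3 higher, of the type IV chains 5 and 1, and of the other chains 14 and 13. No test is given for these means, since the chains were chosen with earlier results of these data known.

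**Figure D1:**
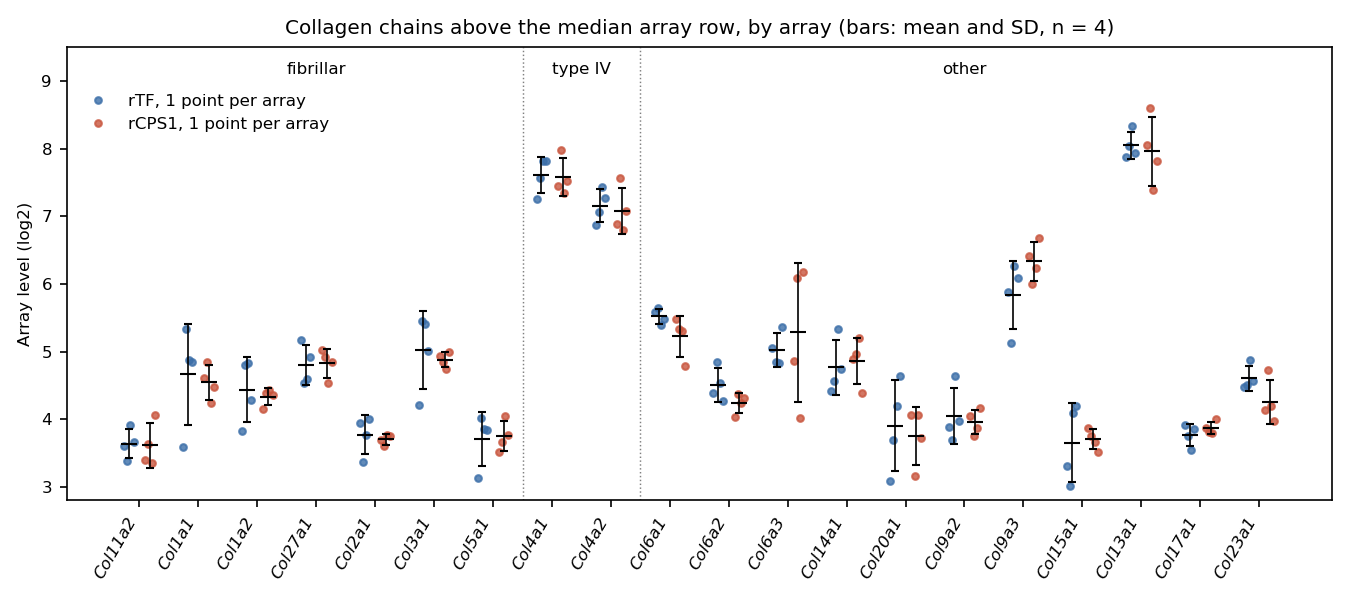
Log2 array level (vertical axis) of the 20 collagen chains above the median array row, with 1 point per array and bars for the mean and SD of the 4 arrays of a group. Groups are to be compared within a chain only; they overlap for all 20 chains, and Col1a1 and Col3a1 each have 1 rTF array far below the rest.

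Only 20 of the 44 chains lay above the median array row: 7 of 11 fibrillar, 2 of 6 type IV and 11 of 27 other chains. The share was 55.8% among all genes. The 24 chains at or below that line had mean levels of 2.13 to 3.56, where an array value can be mostly background, and their log2 differences ran from -0.27 to 0.34. Among them were the fibrillar chains Col5a2, Col5a3, Col11a1 and Col24a1 and the type IV chains Col4a3, Col4a4, Col4a5 and Col4a6.

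Types I and III, the main collagens of scar, were present at a modest level and differed little between the groups. Col1a1, the alpha 1 chain of type I collagen, read 3.59, 5.34, 4.87 and 4.85 in rTF replicates 1 to 4 and 4.61, 4.85, 4.24 and 4.48 in rCPS1 replicates 1 to 4. The rTF group held both the lowest and the highest array, and all 4 rCPS1 arrays lay between them. The log2 difference, rCPS1 minus rTF, of Col1a1 was -0.12 ± 0.32 (SE), with a 95% interval of -0.83 to 0.59 (limma adjusted p = 0.988).

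Col1a2, the second chain of the type I trimer, read 3.82, 4.80, 4.83 and 4.28 in the rTF arrays and 4.15, 4.39, 4.43 and 4.36 in the rCPS1 arrays. Its lowest array was again rTF replicate 1, and the groups overlapped. Between the groups Col1a2 differed by -0.10 ± 0.21 (log2, SE, limma adjusted p = 0.985).

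Col3a1, the only chain of type III collagen, read 4.21, 5.45, 5.41 and 5.01 with rTF and 4.93, 4.85, 4.75 and 5.0 with rCPS1. The rCPS1 arrays lay close together, whereas rTF replicate 1 stood far below and the other rTF arrays at or above every rCPS1 array. Between the groups Col3a1 differed by -0.14 ± 0.25 (log2, SE), with a 95% interval of -0.69 to 0.41 (limma adjusted p = 0.982).

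The low array rTF replicate 1 set much of the spread of these chains. Without it the log2 difference was -0.48 for Col1a1 (limma unadjusted p = 0.0277, adjusted p = 0.879), -0.41 for Col3a1 (unadjusted p = 0.0194, adjusted p = 0.863) and -0.31 for Col1a2 (unadjusted p = 0.088, adjusted p = 0.892), and still 0 of the 44 chains were called. The mean difference of the 11 fibrillar chains was then -0.13. Without rTF replicate 2, the highest array of Col1a1, the differences turned to 0.11 for Col1a1, 0.017 for Col1a2 and 0.0059 for Col3a1. The direction of the type I and III chains thus rested on which rTF arrays were kept.

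The remaining fibrillar chains above the median row had small differences. Col5a1, a chain of the minor fibrillar type V that starts fibril assembly, differed by 0.044 ± 0.20 (log2, SE). Col27a1 differed by 0.026 ± 0.17, Col11a2 by -0.029 ± 0.18 and Col2a1 by -0.073 ± 0.15 (SE, log2), all 3 best known from cartilage. All had limma adjusted p of 0.985 or more, and their groups overlapped. Col5a1 and Col1a2 each had another row of their own on the array, with group means between 2.23 and 2.60 on the log2 scale. Those dimmer rows differed by 0.14 for Col5a1 and -0.017 for Col1a2.

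Of the basement membrane chains, the pair that makes the common type IV network lay well above the median row and had group differences inside their errors. Col4a1 read 7.26, 7.56, 7.82 and 7.81 with rTF and 7.44, 7.98, 7.35 and 7.52 with rCPS1. Its lowest array was in the rTF group and its highest in the rCPS1 group. The log2 difference of Col4a1 was -0.037 ± 0.18 (SE), with a 95% interval of -0.43 to 0.36 (limma adjusted p = 0.989).

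Col4a2, which joins Col4a1 in the same trimer, read 6.87, 7.06, 7.43 and 7.27 with rTF and 6.89, 7.56, 6.80 and 7.08 with rCPS1. The arrays fell in nearly the same order as for Col4a1, with rCPS1 replicate 2 on top. Between the groups Col4a2 differed by -0.077 ± 0.19 (log2, SE, limma adjusted p = 0.988). The 4 type IV chains that are restricted to specialised basement membranes such as those of kidney, Col4a3 to Col4a6, had mean levels of 2.13 to 2.67 and log2 differences of -0.22 (Col4a6) to 0.019 (Col4a5).

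**Figure D2:**
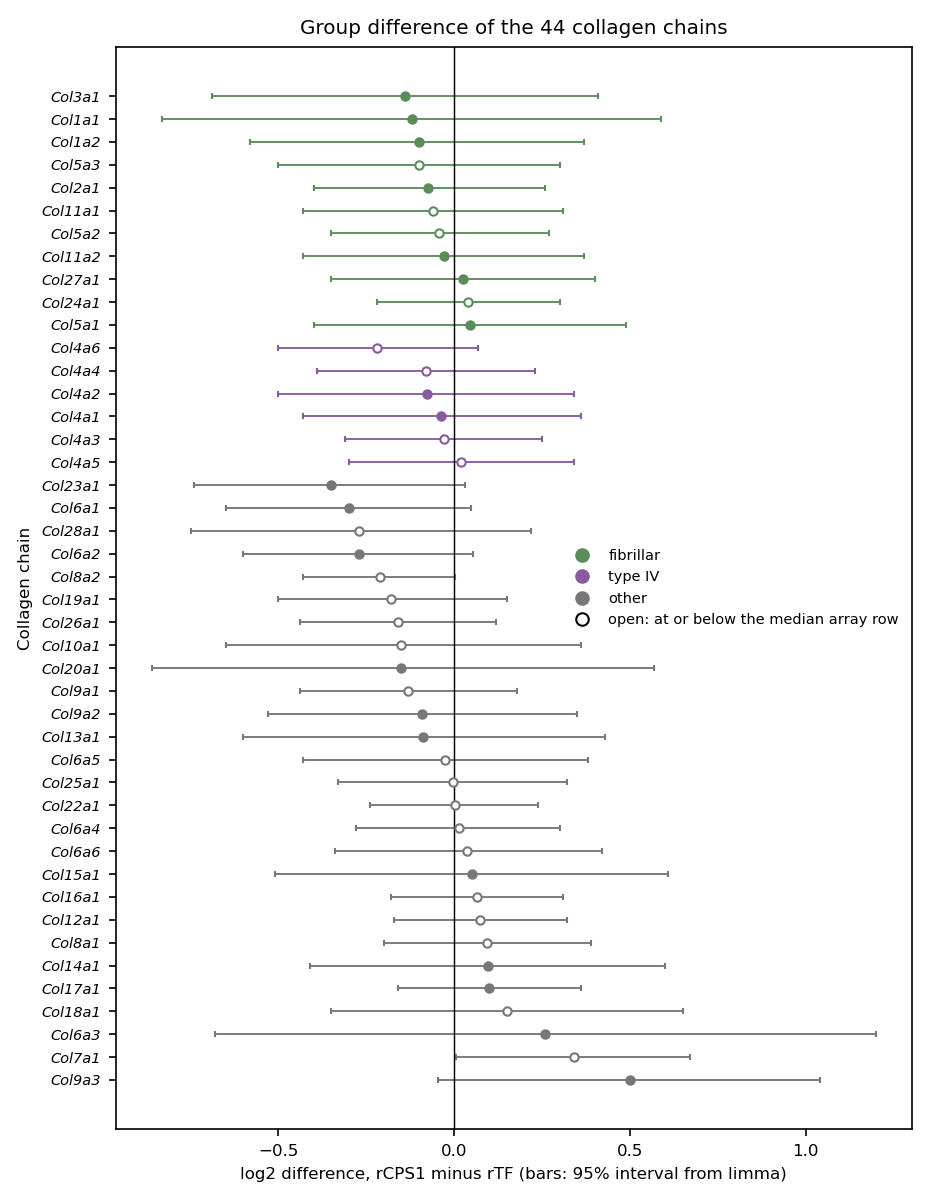
Log2 difference, rCPS1 minus rTF (horizontal axis), of each of the 44 collagen chains with its 95% interval from limma, ordered within fibrillar, type IV and other chains; open points are chains at or below the median array row. Every interval except that of Col7a1, a dim chain, reaches 0, and the widest is that of Col6a3.

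Among the other chains the largest differences had the filament, fibril-associated, anchoring and transmembrane collagens, in both directions. Col9a3, a chain of the cartilage collagen type IX that lies on fibril surfaces, read 5.88, 5.12, 6.26 and 6.08 with rTF and 6.41, 6.0, 6.24 and 6.68 with rCPS1. The low rTF replicate 2 and the high rCPS1 replicates 1 and 4 made the difference, while the middle arrays overlapped. Between the groups Col9a3 differed by 0.50 ± 0.24 (log2, SE), 1.41-fold higher with rCPS1, with an unadjusted p of 0.0686 (limma adjusted p = 0.98). Without rTF replicate 2 the log2 difference of Col9a3 was 0.26.

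Col7a1, the chain of the anchoring fibrils of skin, was the single chain with an unadjusted p under 0.05. Its level was dim, 3.18, 3.28, 3.44 and 3.07 with rTF and 3.66, 3.62, 3.82 and 3.21 with rCPS1, with 3 of 4 rCPS1 arrays above every rTF array. The log2 difference of Col7a1 was 0.34 ± 0.15 (SE, limma unadjusted p = 0.0477, adjusted p = 0.98), and it lay at or below the median array row. Its unadjusted p stayed under 0.05 in 5 of the 13 alternatives it could enter. With renewed quantile normalization it was 0.0863, and Col23a1 was then the single chain under 0.05 (limma unadjusted p = 0.0382).

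Col23a1, a transmembrane collagen, read 4.47, 4.51, 4.88 and 4.57 with rTF and 4.13, 4.73, 4.20 and 3.97 with rCPS1. The rCPS1 arrays lay below every rTF array except rCPS1 replicate 2. The log2 difference of Col23a1 was -0.35 ± 0.17 (SE, limma adjusted p = 0.98), and without rCPS1 replicate 2 it was -0.51 (unadjusted p = 0.00562, adjusted p = 0.972). Col13a1, another transmembrane collagen, read 7.88, 8.04, 8.33 and 7.94 with rTF and 8.05, 8.60, 7.38 and 7.81 with rCPS1. The rCPS1 arrays enclosed all rTF arrays, and the log2 difference of Col13a1 was -0.090 ± 0.23 (SE, limma adjusted p = 0.988). Col17a1, the transmembrane collagen of hemidesmosomes, differed by 0.10 ± 0.12 (log2, SE), and by 0.029 without rTF replicate 3.

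The 3 classic chains of type VI together form beaded filaments around cells. Col6a1 read 5.58, 5.64, 5.39 and 5.48 with rTF and 5.48, 5.34, 5.30 and 4.78 with rCPS1, and its groups differed by -0.30 ± 0.16 (log2, SE, limma adjusted p = 0.98). Col6a2 read 4.39, 4.85, 4.53 and 4.27 with rTF and 4.03, 4.38, 4.24 and 4.31 with rCPS1, and its groups differed by -0.27 ± 0.15 (log2, SE, limma adjusted p = 0.98). Both were on average lower with rCPS1 but with overlapping groups. Without rCPS1 replicate 4 the log2 difference of Col6a1 was -0.15, and without rTF replicate 2 that of Col6a2 was -0.16.

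Col6a3 instead scattered within the rCPS1 group. It read 5.06, 4.84, 4.83 and 5.36 with rTF and 4.86, 6.08, 4.02 and 6.17 with rCPS1, so 2 rCPS1 arrays were above and 1 below all rTF arrays. Its standard deviation was 0.25 with rTF and 1.03 with rCPS1 (n = 4 each), and the log2 difference was 0.26 ± 0.42 (SE, limma adjusted p = 0.981). Its 95% interval, -0.68 to 1.20, was the widest of the chains above the median row. The difference in spread was not tested. A second row of Col6a1 alone had group means of 2.26 and 2.14, and 1 further row carried Col6a1 together with 3 other symbols and was not used for it.

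The fibril-associated chains Col14a1 (0.097 ± 0.23), Col9a2 (-0.091 ± 0.20) and Col20a1 (-0.15 ± 0.32) and the multiplexin Col15a1 (0.050 ± 0.25), found near vessel basement membranes, had log2 differences (± SE) well inside their errors. Col18a1, the chain from which endostatin is cut, was just below the median row with means of 3.45 ± 0.44 and 3.60 ± 0.29 (SD, n = 4 each). Col8a2, a short-chain collagen, was the single chain whose groups did not overlap. It read 2.57 to 2.64 with rTF and 2.33 to 2.47 with rCPS1, far below the median row, with a log2 difference of -0.21 ± 0.097 (SE, limma unadjusted p = 0.0513, adjusted p = 0.98).

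For 18 of the 20 chains above the median row the 95% interval of the log2 difference lay within 1 in either direction. The exceptions were Col6a3, and Col9a3 with an upper bound of 1.04. Smaller differences could not be told from the spread between arrays. The median standard error was 0.20 for these 20 chains and 0.15 for the 12384 genes above the median row, and their median standard deviation over the 8 arrays was 0.30 against 0.21.

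Chains of one trimer were then followed from array to array, whatever the group. The correlations below are over 8 arrays with exact permutation tests (two-sided, 40320 orders), adjusted over 23 gene pairs that were chosen after the values were seen, so their p-values describe these arrays and are not independent evidence. Col4a1 and Col4a2 ran together, with Pearson r = 0.97 (exact permutation p = 0.000248, adjusted p = 0.0057) and Spearman rho = 0.95 (exact permutation p = 0.00114, adjusted p = 0.0262). Leaving out the arrays farthest from the median of Col4a1, rTF replicate 1 and rCPS1 replicate 2, r was again 0.97 (exact permutation p = 0.00278).

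Col1a1 and Col3a1 also ran together, with r = 0.91 (exact permutation p = 0.0025, adjusted p = 0.0288) and rho = 0.90 (exact permutation p = 0.00456, adjusted p = 0.0525). Without the farthest arrays of Col1a1, rTF replicates 1 and 2, r was 0.58 (exact permutation p = 0.228) over 6 arrays with a narrower range of Col1a1, and without rTF replicate 1 alone it was 0.78 (exact permutation p = 0.0371). Those 2 arrays thus carried part of the relation. Col1a1 and Col1a2 gave r = 0.80 (exact permutation p = 0.0222, adjusted p = 0.128), rho = 0.62 (exact permutation p = 0.115, adjusted p = 0.29) and r = 0.26 without the same 2 arrays (exact permutation p = 0.647).

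For type VI chains no relation passed the test. For Col6a1 and Col6a2 r was 0.30 (exact permutation p = 0.402, adjusted p = 0.487) and rho 0.43 (exact permutation p = 0.299, adjusted p = 0.492), and r was -0.098 without rTF replicate 2 and rCPS1 replicate 4. For Col6a1 and Col6a3 r was -0.50 (exact permutation p = 0.219, adjusted p = 0.34) and rho -0.19 (exact permutation p = 0.665, adjusted p = 0.764), and r was 0.18 without the same arrays. Between the fibrillar and the type IV chain, Col1a1 and Col4a1, r was 0.67 (exact permutation p = 0.0633, adjusted p = 0.208) and rho 0.76 (exact permutation p = 0.0368, adjusted p = 0.141). This r was 0.90 without rTF replicates 1 and 2, but 0.48 (exact permutation p = 0.288) without rTF replicate 1 alone. For Col3a1 and Col4a1 r was 0.52 (exact permutation p = 0.192, adjusted p = 0.339). It was 0.39 without rTF replicates 1 and 2, and 0.20 without rTF replicate 1 alone.

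**Figure D3:**
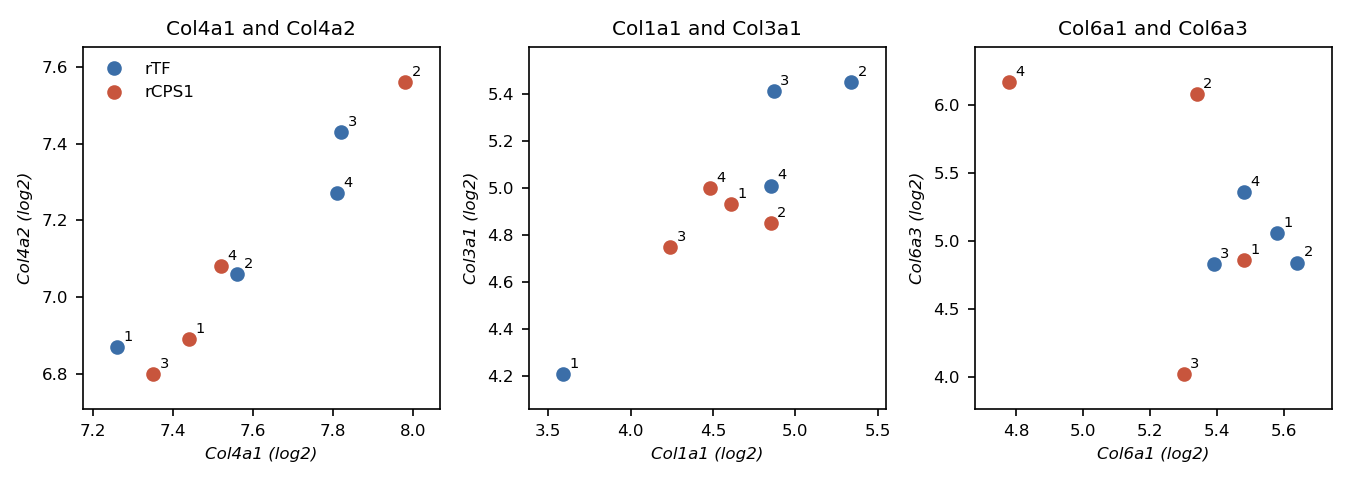
Log2 levels of 3 pairs of collagen chains, 1 point per array numbered by replicate and coloured by group. Col4a1 and Col4a2 lie along a line (r = 0.97), Col1a1 and Col3a1 rise together with rTF replicates 1 and 2 at the ends, and Col6a1 and Col6a3 do not.

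Promoter sequence is shown for Col4a1 and Col4a2, whose levels ran together and whose starts lie side by side, and for comparison for Col1a2 and Col3a1, fibrillar chains on different chromosomes. Col1a2 and Col3a1 were not among the pairs correlated, and Col1a1, the partner of each, had no window. The windows are from RefSeq (mouse build GRCm38.p6), which gave them for 35 of the 44 chains. On chromosome 8 the genes stand head to head. In the transcripts behind the windows Col4a2 starts at 11312805 on the plus strand and Col4a1 at 11312826 on the minus strand, 21 bases apart, so that they overlap at their 5′ ends and a single stretch holds both starts. The RefSeq gene span of Col4a1 reaches further, to 11312889, which lies outside the stretch shown. Below are the 40 bases before the Col4a2 start and 50 after it (chr8:11312765-11312854), and the whole windows from 250 bases before to 50 after the start of Col1a2 (chr6:4505368-4505667) and Col3a1 (chr1:45311288-45311587), all on the plus strand. Capitals mark CCAAT, the letters bound by NF-Y, GGGCGG, the letters bound by Sp1, and TATAAA, the letters of the TATA box, on either strand.
Col4a2 and Col4a1: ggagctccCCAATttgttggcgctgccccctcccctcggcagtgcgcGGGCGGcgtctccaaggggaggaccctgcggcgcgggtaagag
Col1a2: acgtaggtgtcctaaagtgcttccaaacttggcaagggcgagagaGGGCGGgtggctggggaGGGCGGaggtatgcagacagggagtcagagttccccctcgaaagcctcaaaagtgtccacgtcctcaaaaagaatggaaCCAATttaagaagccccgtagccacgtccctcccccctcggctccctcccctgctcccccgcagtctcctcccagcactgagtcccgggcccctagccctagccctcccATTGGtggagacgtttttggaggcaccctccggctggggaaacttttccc
Col3a1: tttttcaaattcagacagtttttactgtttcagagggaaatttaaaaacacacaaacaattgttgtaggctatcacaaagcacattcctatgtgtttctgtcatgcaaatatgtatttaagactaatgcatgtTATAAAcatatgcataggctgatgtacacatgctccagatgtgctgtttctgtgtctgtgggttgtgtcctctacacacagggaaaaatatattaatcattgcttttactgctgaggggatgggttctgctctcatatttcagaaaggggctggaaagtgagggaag

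The Col4a2 window held 1 CCAAT and 3 GGGCGG matches and no TATAAA, and 73.7% of its bases were G or C. Of these GGGCGG matches, those at -192 and -48 relative to the Col4a2 start lie outside the stretch shown. The Col4a1 window held 1 CCAAT and 1 GGGCGG match and no TATAAA, with 74.0% G or C. Its CCAAT match, at -145 relative to the Col4a1 start, also lies outside the stretch shown. The Col1a2 window held 2 CCAAT and 2 GGGCGG matches. The Col3a1 window held 1 TATAAA match, with its first base at -117 relative to the start, and neither of the others. Of the Col3a1 bases 37.7% were G or C, against a median of 52.7% over all windows. No matches overlapped. Over all 32851 RefSeq windows of this length, 37.4% held CCAAT, 35.7% GGGCGG and 13.6% TATAAA. Among the 35 collagen genes with a window, 13 held CCAAT, 22 GGGCGG and 5 TATAAA in at least 1 window. A match describes the letters only.

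Stellate cell genes were set beside the collagens because stellate cells are a main source of fibrillar collagen in injured liver. Of the 22 genes listed 20 were measured, and 14 lay above the median row. Those at or below it were Gfap, Ngfr, Nes, Lhx2, Tagln and Lum. Averaged over the 20 genes, the 4 rTF arrays lay at 5.21 ± 0.28 (SD, range 4.90 to 5.57) and the 4 rCPS1 arrays at 5.07 ± 0.28 (SD, range 4.71 to 5.38) on the log2 scale. This difference of -0.14 was smaller than the spread, and the groups overlapped. Of the 20 genes 15 were lower (75%, beside 54.4% of all genes) and 5 higher, and 0 passed in limma. At an unadjusted p under 0.05 there was 1 of 20 (5%), close to the 4.67% of all genes. That gene was Ngfr, a neurotrophin receptor, with a log2 difference of -0.38 ± 0.17 (SE, limma adjusted p = 0.98).

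Lrat, the enzyme that stores retinol in stellate cells, read 5.08, 5.62, 6.18 and 5.97 with rTF and 5.75, 5.21, 5.30 and 4.98 with rCPS1. Between the groups Lrat differed by -0.41 ± 0.24 (log2, SE, limma adjusted p = 0.98). Reln, a secreted protein of quiescent stellate cells, differed by -0.15 ± 0.30, Des, the intermediate filament desmin, by -0.24 ± 0.26, and Pdgfrb, the growth factor receptor of activated stellate cells, by 0.13 ± 0.18 (SE, log2). Acta2, smooth muscle actin of myofibroblasts, differed by -0.037 ± 0.21 (log2, SE). Further members of smallest p were Nes (0.32 ± 0.21) and Vipr1 (-0.21 ± 0.15), neither past the test.

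**Figure D4:**
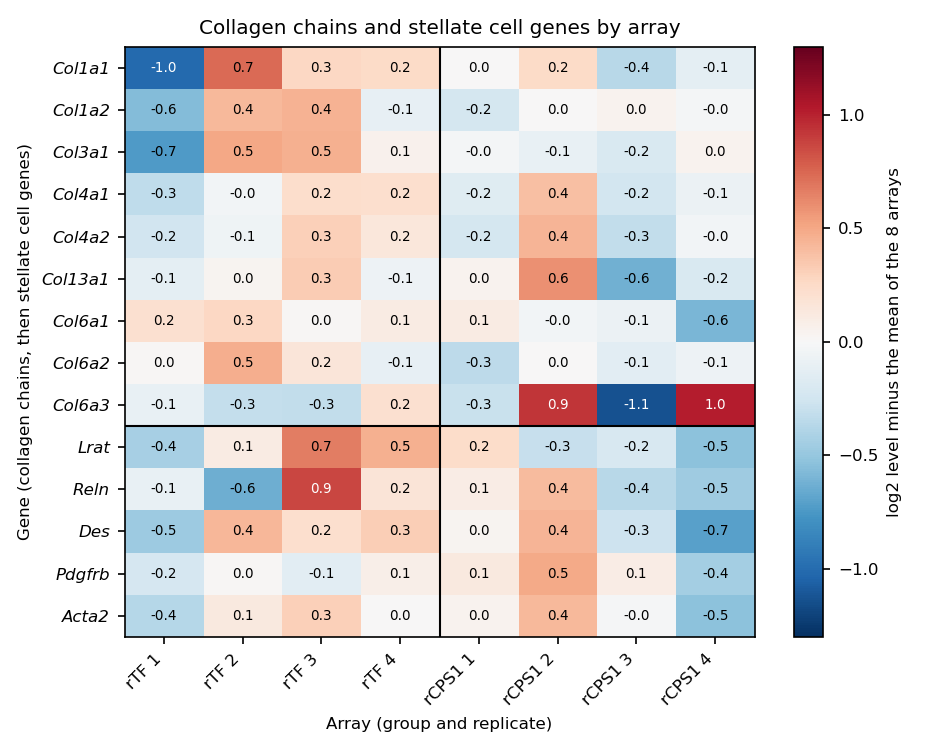
Log2 level minus the mean of the 8 arrays (colour and printed value) for 9 collagen chains and 5 stellate cell genes (rows) in each array (columns). rTF replicate 1 is low for Col1a1, Col1a2 and Col3a1 and for Des, Lrat and Acta2. rCPS1 replicate 4 is the lowest array of Des, Lrat, Acta2 and Pdgfrb, and in it Col1a1 and Col3a1 are near their means. rCPS1 replicate 2 is high for Col4a1, Col4a2 and Col13a1.

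The array that was lowest for type I and III chains, rTF replicate 1, was low for several stromal genes. The stellate mean was 4.90 there but lower, 4.71, in rCPS1 replicate 4, where Col1a2 read 4.36 and Col3a1 5.0. The order of arrays was thus not the same for every gene. Des, at 3.52, 4.43, 4.21 and 4.31 with rTF and 4.03, 4.44, 3.73 and 3.29 with rCPS1, was low in rTF replicate 1, as Col1a1 was, and lowest in rCPS1 replicate 4, where Col1a1 was near its mean. Over 8 arrays Col1a1 and Des gave r = 0.77 (exact permutation p = 0.0181, adjusted p = 0.128) and rho = 0.76 (exact permutation p = 0.0368, adjusted p = 0.141), and r was 0.78 (exact permutation p = 0.0694) without rTF replicates 1 and 2. Col1a1 and Reln gave r = 0.11 (exact permutation p = 0.807, adjusted p = 0.884) and rho = 0.21 (exact permutation p = 0.619, adjusted p = 0.764), with r = 0.84 (exact permutation p = 0.0417) without those arrays. Of the 15 pairs of Col1a1, Col3a1 or Col4a1 with Lrat, Reln, Des, Pdgfrb or Acta2, 0 passed after adjustment. Pairs of collagen chains with endothelial genes were not tested.

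Portal fibroblast genes were also low in rTF replicate 1. Averaged over the 10 genes measured, the log2 level was 3.94 there, 4.25 to 4.84 in rTF replicates 2 to 4 and 3.93 to 4.53 in the rCPS1 arrays, a group difference of -0.13 with 7 lower and 3 higher. The members of smallest p were Fbln2 (-0.25 ± 0.20), Pdgfra (-0.58 ± 0.48), Eln (0.18 ± 0.16) and Pi16 (-0.28 ± 0.28, log2 difference ± SE), and 0 passed in limma. At or below the median row were Eln, Mfap4 and Gli1. Kupffer cell genes were high in rTF replicate 1, at 9.94, when rTF replicates 2 to 4 gave 9.26 to 9.64. The rCPS1 arrays gave 9.37 to 10.10, with a group difference of 0.15 and 8 of 10 members higher. In rCPS1 replicate 4, the lowest array of the portal fibroblast mean (3.93), the Kupffer mean was 9.41. Their members of smallest p were Marco (0.41 ± 0.21), Cd68 (-0.15 ± 0.14), Adgre1 (0.23 ± 0.21) and Vsig4 (0.24 ± 0.25, log2 difference ± SE). The part of these cell types in the collagen values was not tested.

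Endothelial and bile duct genes differed little by group, and hepatocyte genes about as much as the stellate and portal fibroblast genes. The 11 endothelial genes averaged 11.16 to 11.40 with rTF and 11.22 to 11.38 with rCPS1, a difference of 0.017. The 10 hepatocyte genes averaged 7.96 to 8.62 with rTF and 7.72 to 8.34 with rCPS1. They differed by -0.11, with 8 lower and 2 higher, beside -0.14 for the stellate and -0.13 for the portal fibroblast genes. The 5 measured bile duct genes averaged 3.49 to 3.77 with rTF and 3.63 to 3.77 with rCPS1, a difference of 0.079. The endothelial members of smallest p were Lyve1 (-0.28 ± 0.20), Pecam1 (0.12 ± 0.10), Stab2 (0.12 ± 0.12) and Kdr (0.10 ± 0.18, log2 difference ± SE). Those of the hepatocyte list were Fgb (-0.51 ± 0.35), Ahsg (-0.32 ± 0.26), Ttr (-0.12 ± 0.18) and Apoc3 (0.092 ± 0.21), and those of the bile duct list Krt19 (0.34 ± 0.16), Sox9 (0.30 ± 0.19), Epcam (-0.22 ± 0.26) and Cftr (-0.12 ± 0.15, log2 difference ± SE). In limma 0 genes of these lists passed, and 0 had an unadjusted p under 0.05.

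The enzymes that build collagen did not pass either. Of the 30 genes listed for synthesis and processing 26 were measured, 18 lower and 8 higher with rCPS1, 0 with a limma adjusted p under 0.05 and 0 with an unadjusted p under 0.05. Their median log2 difference was -0.096, beside -0.018 for all genes. The members of smallest p were Plod2, a lysyl hydroxylase (0.38 ± 0.18), Ppib, a proline isomerase of the endoplasmic reticulum (-0.21 ± 0.12), Adamts3, a procollagen protease (-0.23 ± 0.15), and P4hb, the beta subunit of prolyl 4-hydroxylase (-0.18 ± 0.12, log2 difference ± SE). Plod2 and Adamts3 were at or below the median row.

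Of the 11 collagen receptor genes 10 were measured, 3 lower and 7 higher, 0 past the limma test and 0 at an unadjusted p under 0.05, with a median log2 difference of 0.059. Those of smallest p were Itga11, an integrin of fibroblasts that binds fibrillar collagen (-0.19 ± 0.12), Gp6, the platelet collagen receptor (0.21 ± 0.28), Lair1, an inhibitory receptor of leukocytes (0.091 ± 0.16), and Itga1 (0.084 ± 0.15, log2 difference ± SE). Ddr2, a collagen receptor kinase of fibroblasts chosen after its values were seen, read 5.46, 6.86, 6.54 and 6.27 with rTF. With rCPS1 it read 6.41, 6.19, 5.94 and 6.05, so it was lowest in rTF replicate 1 as Col1a1 was. The receptors did not share this order. In rTF replicate 1 Ddr1, Itga2 and Mrc1 were lowest too, Mrc2 and Lair1 were highest, and Itga1, Itga11, Itgb1 and Gp6 were neither.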

How the data were processed

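RNA from 8 hepatic macrophage samples was labelled with the Affymetrix WT Plus reagents and hybridised to arrays, per the labels' protocols. The deposited values are log2 levels made with RMA (background correction, quantile normalization, probe summary), per the submitters' processing notes, which also name limma, without versions. RMA gives the arrays a common distribution before the probe summary, so a change common to most genes could not be reliably seen. After the summary the array medians still ran from 3.55 to 3.68. How macrophages were isolated, when, and the array's build are not given in the sources used here. Groups and replicate numbers came from the sample titles, and 0 pairs of arrays held identical values.

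Of 41345 rows, 23521 had exactly 1 symbol in the platform annotation, 1814 several and 16010 none. For genes with several such rows the row of highest mean was kept (22180 genes, no filter on dim rows). The 44 collagens had 47 rows, and all 44 matched RefSeq by Entrez ID with the same symbol. The fit used R 4.3.3 with limma 3.58.1 (lmFit, eBayes, two-sided, no covariate, Benjamini-Hochberg over all genes at 0.05). Members, classes and gene lists were chosen with earlier results of these data known. Named with values were all collagens above the median array row, those with an unadjusted p under 0.05, the 3 largest differences each way, the 4 members of smallest p in each list and 5 stellate genes. The limma step was tested on simulated data drawn from the level and variance of these 22180 genes. It recovered 14%, 64%, 92% and 96% of 50 genes changed by 0.5, 1, 1.5 and 2 (log2), with 5 false calls listed for each size. These rates are over all genes and not for the collagen chains alone. Correlations used exact permutation (Python 3.11.15). Same-numbered arrays did not deviate together (correlations -0.12 to 0.025), so numbers were not taken as pairs.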

Additional observations from a re-analysis of the deposited data

Results flagged for a closer look

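Dixon's ratio, the gap of the end array to its neighbour over the whole range of the 4 arrays of a group, was computed for the 44 collagen chains, the means of the fibrillar, type IV and other chains and the stellate mean, 96 groups of values in all. The ratio passed its 95% critical value in 1 of them, against 4.8 expected by chance at 1 in 20. Col8a2 was at 2.57 in rTF replicate 1 and at 2.63 to 2.64 in the other rTF arrays (log2), a gap of a few hundredths at a dim level. The low values of Col1a1 and Col3a1 in the same array did not pass, because the other rTF arrays of those chains were spread as well.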

How the results depend on the processing

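Under every alternative run (a filter on dim rows, variance fitted with a trend and robustly, array weights, the replicate number as a block, renewed quantile normalization, averaging the rows of each gene, and each array left out in turn), limma called 0 of all genes, 0 collagen chains, 0 synthesis genes and 0 receptor genes. Chains with an unadjusted p under 0.05 numbered 1 as reported, 0 with the filter on dim rows and with the trended robust variance, 2 with array weights and 2 with the replicate block, and 0 to 2 with 1 array left out (2 without rTF replicate 1, rTF replicate 3 or rCPS1 replicate 2, 0 without rTF replicate 2 or rCPS1 replicate 3). The numbers only name samples, and the block changed no call. With the median over members in place of the mean, the difference of the other chains was 0.089 instead of -0.023. The cause was not tested. With 1 array left out the mean difference ran from -0.13 to -0.0077 for fibrillar, from -0.15 to -0.014 for type IV and from -0.055 to 0.021 for other chains, and from -0.24 to -0.020 for stellate genes.

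Of the 21 chains followed, 5 kept their direction in all 14 alternatives (Col6a1, Col6a2, Col9a3, Col17a1 and Col23a1), and Col7a1 did in the 13 it could enter, since the filter on dim rows removes it. With 1 array left out these ran from -0.38 to -0.15 for Col6a1, -0.35 to -0.16 for Col6a2, 0.26 to 0.64 for Col9a3, 0.029 to 0.15 for Col17a1, -0.51 to -0.26 for Col23a1 and 0.26 to 0.46 for Col7a1. The filter on dim rows, the trended robust variance and the replicate block cannot change a difference in this balanced design. Averaging rows cannot either for a chain with a single row. Fits with 1 array left out share most of their arrays, so a kept direction is not an independent check. The chains under an unadjusted p of 0.05 were not always the same: Col7a1 as reported, Col23a1 alone with renewed quantile normalization, and Col1a1 and Col3a1 without rTF replicate 1. Array weights turned Col15a1 to -0.13 and Col5a1 to -0.020, and renewed quantile normalization turned Col27a1 to -0.037. With 1 array left out, log2 differences ran from -0.48 to 0.11 for Col1a1, -0.31 to 0.029 for Col1a2, -0.41 to 0.0059 for Col3a1, -0.15 to 0.15 for Col5a1, -0.065 to 0.15 for Col27a1, -0.18 to 0.062 for Col11a2 and -0.21 to 0.0060 for Col2a1. They ran from -0.17 to 0.039 for Col4a1, -0.24 to 0.018 for Col4a2, -0.30 to 0.10 for Col13a1, -0.019 to 0.29 for Col14a1, -0.16 to 0.23 for Col15a1, -0.42 to 0.095 for Col20a1, -0.21 to 0.11 for Col9a2 and -0.038 to 0.68 for Col6a3. Chosen after seeing the data, the correlations were repeated without rTF replicate 1, where Col4a1 with Col4a2 gave r = 0.98, Col1a1 with Col3a1 r = 0.78, and Col3a1 with Pdgfrb turned from 0.017 to -0.37. The number of arrays and the dim level of 24 chains limit what can be seen.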
